A study of Mus musculus with 12 samples.

Results

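The inflammatory chemokine receptors examined here were the mRNA of Cxcr3, Cxcr4, Cxcr6, Ccr2 and Ptgdr2, chosen by name, and all 5 were among the 13283 genes of the deposited expression table. RNA sequencing was of mouse cytotoxic T lymphocytes (CTL), effector CD8 T cells grown in culture from lymph node or spleen cells of female mice aged 11 to 27 weeks. The cells were activated through the antigen receptor and CD28 for 48 h and then expanded in IL-2 (20 ng/mL) with IL-12 (2 ng/mL). They were then plated for 24 h in the same cytokines with DMSO vehicle or with 10 µM IC87114 (PI3Kdi), which inhibits the phosphoinositide 3-kinase catalytic subunit p110δ.

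The 4 groups held 3 libraries each. WT CTL were GzmB cre+ and had a normal Foxo1 gene. FOXO1-GFP KO CTL were FOXO1-GFP fl/fl GzmB cre+ and lost the floxed allele, in which Foxo1 exon 2 is fused to EGFP, once the Cre was expressed. WT+PI3Kdi and FOXO1-GFP KO+PI3Kdi were the same cells given the inhibitor, so that both genotypes and all groups carried the Cre, which the granzyme B promoter drives in activated CTL. WT cells were sorted as living CD8+ cells, whereas FOXO1-GFP KO cells were also sorted as GFP-, so this gate and the genotype cannot be told apart. The labels call the replicates biological but do not say whether the vehicle and PI3Kdi libraries of a number came from the same mouse.

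Chemokine receptors are G protein-coupled receptors that let leukocytes move towards, and stay in, tissues that make their ligands. CXCR3 binds the interferon-inducible chemokines CXCL9 and CXCL10 and guides effector T cells to inflamed tissue, CXCR6 binds CXCL16 and serves the placement of CD8 T cells in organs such as liver and lung, and CCR2 binds CCL2 and related chemokines. CXCR4 binds CXCL12, which holds cells in bone marrow and lymphoid tissue. Ptgdr2 encodes CRTH2, a chemoattractant receptor for prostaglandin D2 best known on type 2 helper T cells, eosinophils and basophils. FOXO1 is a transcription factor that AKT, downstream of PI3K, keeps out of the nucleus, and in resting T cells it drives homing genes such as Klf2 and Ccr7.

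The letters before the start of each gene are shown because FOXO1 binds DNA. They are RefSeq sequence of GRCm38.p6, read 5′ to 3′ on the strand of the gene, and stop at the RefSeq start or, where the GENCODE M21 gene begins before it, at that gene. Capitals mark a match to either of 2 forkhead motifs, GTAAACA and ATAAACA, searched on both strands in the 250 bases before the RefSeq start.
Cxcr3 (chrX:101734270-101734397, minus strand): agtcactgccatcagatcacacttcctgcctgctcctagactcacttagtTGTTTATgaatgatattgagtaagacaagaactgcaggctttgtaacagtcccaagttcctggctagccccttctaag
Cxcr6 (chr9:123806227-123806474, plus strand): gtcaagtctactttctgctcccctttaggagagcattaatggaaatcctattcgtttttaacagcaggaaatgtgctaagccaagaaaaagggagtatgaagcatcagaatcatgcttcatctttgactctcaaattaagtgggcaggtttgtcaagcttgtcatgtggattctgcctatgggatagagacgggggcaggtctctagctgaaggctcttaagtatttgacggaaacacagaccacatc
Cxcr4 (chr1:128592300-128592549, minus strand): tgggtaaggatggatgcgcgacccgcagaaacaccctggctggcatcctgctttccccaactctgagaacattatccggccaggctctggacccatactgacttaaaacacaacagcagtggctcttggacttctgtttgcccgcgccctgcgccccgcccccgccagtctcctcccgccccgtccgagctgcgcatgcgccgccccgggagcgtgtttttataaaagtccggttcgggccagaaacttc
Ptgdr2 (chr19:10936910-10937159, plus strand): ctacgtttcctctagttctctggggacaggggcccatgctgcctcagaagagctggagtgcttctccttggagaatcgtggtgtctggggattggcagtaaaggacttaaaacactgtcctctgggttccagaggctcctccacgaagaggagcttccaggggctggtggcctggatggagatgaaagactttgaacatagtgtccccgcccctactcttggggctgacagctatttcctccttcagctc
The Cxcr3 window held 1 match, which is the reverse complement of ATAAACA and begins 200 bases before the RefSeq start. Those of Cxcr4, Cxcr6, Ccr2 and Ptgdr2 held 0, and most of the Ccr2 window, 233 of its 250 bases, lay inside the GENCODE gene and is not printed. Of 32851 RefSeq windows of this length, 3.17% held GTAAACA, 4.16% held ATAAACA and 7.10% held either. A match describes the letters only and was not tested for binding.

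Foxo1 mRNA checks the genotype. It was 9.99, 5.77 and 5.79 FPKM (fragments per kilobase of exon, scaled to library size) in WT replicates 1 to 3 and 10.46, 5.84 and 7.50 in WT+PI3Kdi. FOXO1-GFP KO libraries held 0.58, 1.08 and 1.44 FPKM and those given PI3Kdi 0.61, 1.06 and 1.75, so the genotypes did not overlap. A library held 12.8 to 47.9 M fragments (M, 1e6) in genes, estimated from the steps between low FPKM values, and the CD8 T cell markers Cd8a, Cd8b1, Cd3e, Gzmb and others were all present in the table, 9 of 9, with a summed level of 9531 to 13977 FPKM. The estimated fragments behind a member in a library were 2863 to 10303 for Ccr2, 678 to 4534 for Cxcr6, 324 to 1627 for Cxcr3, 75 to 326 for Cxcr4 and only 13 to 136 for Ptgdr2. Counting error alone was then up to 27.7% of a Ptgdr2 value and up to 11.5% of a Cxcr4 value, but at most 5.56% for the other 3 receptors.

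In WT CTL the receptors fell in the order Cxcr6, Ccr2, Cxcr3, Cxcr4 and Ptgdr2. Mean levels, which FPKM gives per length of exon, were 64.6 ± 14.7, 38.8 ± 9.44, 19.9 ± 0.563, 3.83 ± 0.262 and 1.33 ± 0.453 FPKM (SD, n = 3). The libraries of Cxcr6 and Ccr2 overlapped by a little, 48.90 FPKM being the lowest value of Cxcr6 and 49.52 the highest of Ccr2, while every other pair of neighbours in the order was apart. In FOXO1-GFP KO CTL the first places were exchanged, with Ccr2 at 36.0 ± 5.71 and Cxcr6 at 27.1 ± 7.42 FPKM, whose libraries overlapped. With PI3Kdi they did not overlap in either genotype, Cxcr6 being above Ccr2 in WT+PI3Kdi and below it in FOXO1-GFP KO+PI3Kdi. The last places of Cxcr3, Cxcr4 and Ptgdr2 were the same in all 4 groups. Exon length enters these levels, and it was 6760 bases for Ccr2 against 1731 to 2644 for the others.

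**Figure D1:**
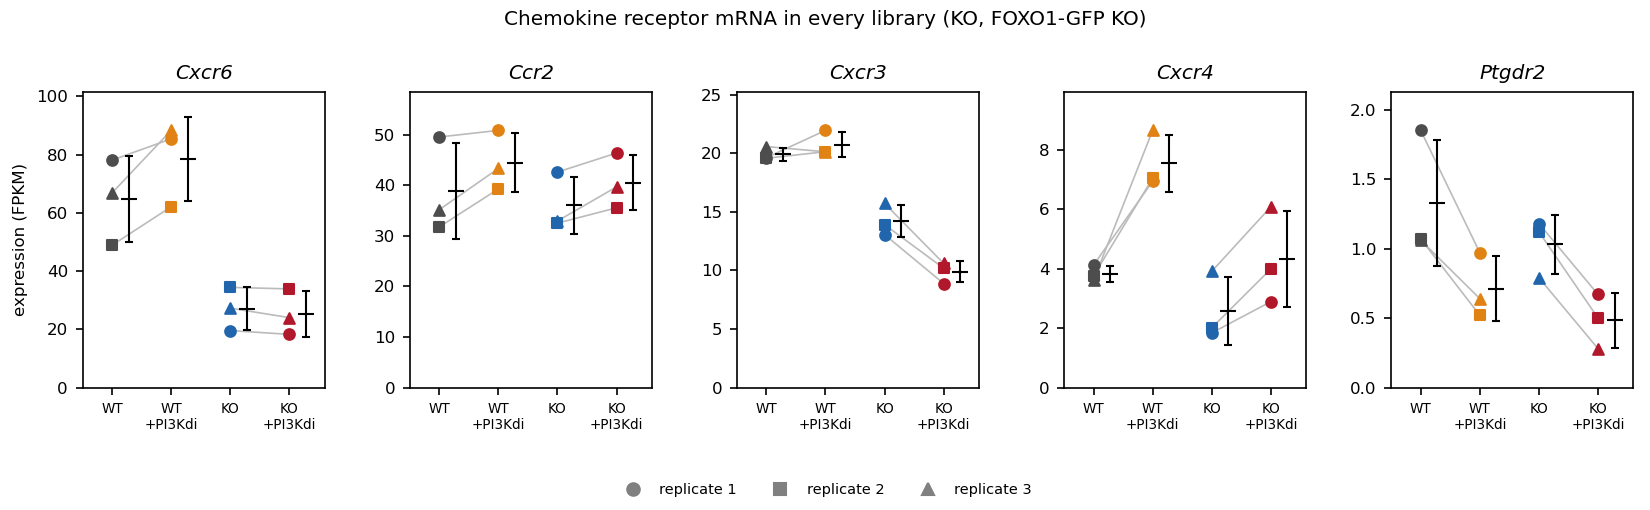
FPKM of each receptor in the 12 libraries, with symbols for the replicate, lines joining the vehicle and PI3Kdi libraries of a number, and the mean ± SD beside them; each panel has its own axis from 0. Cxcr6 and Cxcr3 lie lower in FOXO1-GFP KO libraries, Cxcr4 rises and Ptgdr2 falls along each line, and Ccr2 is at 31.74 to 50.83 FPKM throughout.

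The first comparison asked how the receptors respond to the loss of p110δ activity in WT CTL. A call needed an adjusted p (Benjamini-Hochberg, all 13283 genes) under 0.05 together with a fold change over 1.5. The scale was log2(FPKM + 0.1), on which the fold change of a low gene is understated. The limma fit without a term for replicate pairs called 0 of 5 receptors against 0.0979% of all genes, and 2 of the 5 had an unadjusted p under 0.05. Such counts, here and below, are given without their share over all genes, so they are not read as a result. The vehicle and PI3Kdi libraries of a number deviated together within each genotype, and limma with those pairs as a block called 2 of 5, Cxcr4 higher and Ptgdr2 lower, against 2.57% of all genes (1.53% higher and 1.05% lower). For FOXO1-GFP KO CTL the fit without the block called 0 of 5, against 0.0452% of genes, with 3 of 5 at an unadjusted p under 0.05. With the block it called the same 2 receptors in the same directions, against 2.79% of genes (1.82% higher and 0.964% lower). Voom on estimated fragments called 0 in either genotype without the block, and Cxcr4 and Ptgdr2 in both with it.

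Cxcr4 was higher with PI3Kdi in both genotypes. In WT it was 4.12, 3.76 and 3.61 FPKM with vehicle and 6.94, 7.04 and 8.65 with PI3Kdi. The WT groups did not overlap, and each pair rose by 1.68 to 2.40 times. A gap of this kind, with PI3Kdi higher, was found for 4.43% of genes. The log2 fold change was 0.95 ± 0.133 (SE, n = 3 per group) with the block (adjusted p = 0.00123) and the same without it, where the SE was 0.291 (adjusted p = 0.459). Each SE of a fold change, here and below, rests on a spread that all 12 libraries share, not on that of the groups compared alone. FOXO1-GFP KO libraries held 1.84, 2.01 and 3.91 FPKM with vehicle and 2.89, 3.99 and 6.08 with PI3Kdi. Those groups overlapped because replicate 3 was high in both, while the pairs rose by 1.55 to 1.99 times. The log2 fold change was 0.73 ± 0.133 (adjusted p = 0.00678 with the block, 0.868 without). With the block and without FOXO1-GFP KO replicate 2, or without FOXO1-GFP KO+PI3Kdi replicate 2 or 3, Cxcr4 was not called in this genotype.

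Ptgdr2 was lower with PI3Kdi in both genotypes, from a low start. WT libraries held 1.85, 1.07 and 1.06 FPKM and WT+PI3Kdi libraries 0.97, 0.52 and 0.64. The groups were apart, and the values with PI3Kdi were 0.486 to 0.604 of those of their vehicle pair. A gap with PI3Kdi lower was found for 5.81% of genes in WT. The log2 fold change was -0.81 ± 0.143 with the block (adjusted p = 0.00583) and its adjusted p was 0.751 without it. FOXO1-GFP KO libraries held 1.18, 1.12 and 0.79 FPKM and FOXO1-GFP KO+PI3Kdi libraries 0.67, 0.50 and 0.28. These were again apart, as 4.80% of genes were in that direction, with pair ratios of 0.354 to 0.568. Here the log2 fold change was -0.99 ± 0.143 (adjusted p = 0.00198 with the block, 0.662 without). Leaving out any library kept both calls of Ptgdr2 under the block, whose correlation was held at its value from all 12 libraries. The last 1031 of the 2644 exonic bases of Ptgdr2 (chr19:10941481-10942511) overlap the end of Ccdc86 on the opposite strand. Whether reads were counted by strand is not given in the sources used here, and without strand the reads of that stretch could not be told apart. Ccdc86 itself was at 4.93 to 9.99 FPKM, and its log2 fold change with PI3Kdi was -0.11 in WT (adjusted p = 0.509 with the block) against -0.36 in FOXO1-GFP KO (adjusted p = 0.0310).

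Cxcr3 mRNA was nearly level in WT CTL, with 19.63, 19.58 and 20.58 FPKM under vehicle and 21.96, 20.14 and 20.13 under PI3Kdi. Its log2 fold change was 0.06, with a 95% interval of -0.06 to 0.17 with the block and of -0.17 to 0.28 without it. In FOXO1-GFP KO CTL it was 13.06, 13.91 and 15.72 FPKM under vehicle and 8.88, 10.19 and 10.60 under PI3Kdi. All 3 pairs were lower with the inhibitor, at 0.674 to 0.733 of the vehicle value, as 26.4% of all genes were lower in all 3. The groups did not overlap, which held for 4.80% of genes in that direction. The log2 fold change was -0.52 ± 0.0526 with the block (adjusted p = 0.000351) and its adjusted p was 0.251 without it. At 1.43-fold this stayed under the fold change of 1.5, so Cxcr3 was not called in either fit.

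PI3Kdi gave no call for Cxcr6 or Ccr2 in either genotype. Cxcr6 in WT was 78.14, 48.90 and 66.86 FPKM with vehicle and 85.43, 62.11 and 88.35 with PI3Kdi, and the groups overlapped. The pair ratios were 1.09 to 1.32 and the log2 fold change 0.29 ± 0.105 (adjusted p = 0.117 with the block). In FOXO1-GFP KO the values were 19.59, 34.43 and 27.30 FPKM against 18.28, 33.90 and 24.03, with ratios of 0.880 to 0.985 and the log2 fold change was -0.10 ± 0.105 (adjusted p = 0.532 with the block). Ccr2, at 49.52, 31.74 and 35.15 FPKM in WT and 50.83, 39.25 and 43.30 in WT+PI3Kdi, gave a log2 fold change of 0.21 (95% interval 0.04 to 0.39 with the block, adjusted p = 0.122). FOXO1-GFP KO libraries held 42.59, 32.50 and 32.92 FPKM without and 46.35, 35.53 and 39.66 with PI3Kdi, a log2 fold change of 0.17 (0.00 to 0.34, adjusted p = 0.168). Ccr2 was higher with PI3Kdi in all 6 pairs, but being higher in all 3 pairs was also found for 16.7% of genes in WT and 23.1% in FOXO1-GFP KO.

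**Figure D2:**
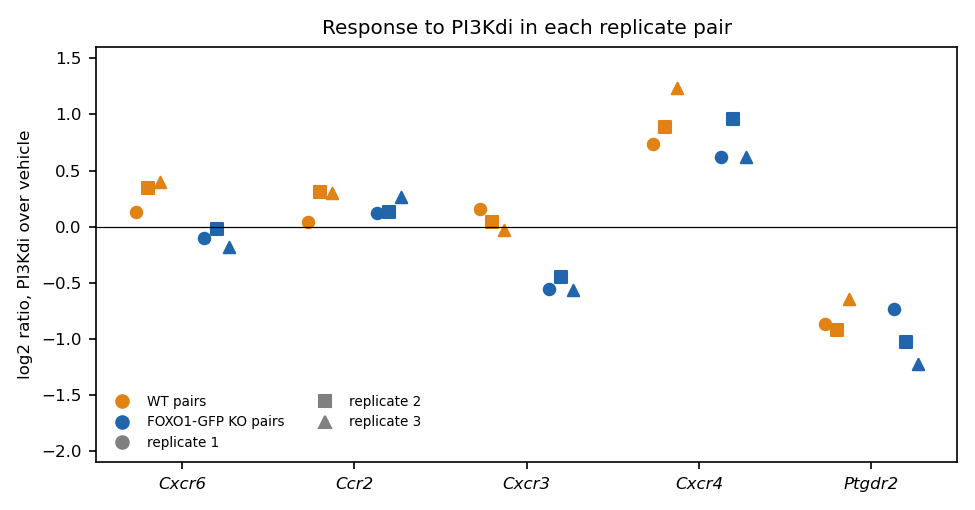
Log2 ratio of FPKM + 0.1, PI3Kdi over vehicle, for each receptor in the 3 replicate pairs of WT and the 3 of FOXO1-GFP KO. Cxcr4 lies above 0 and Ptgdr2 below 0 in all 6 pairs, and Cxcr3 is below 0 in the FOXO1-GFP KO pairs at -0.45 to -0.56.

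The next comparison asked which receptors differ between CTL with and without FOXO1. Without PI3Kdi the fit with no block called 0 of 5 receptors, against 0.331% of all genes, and 2 of 5 had an unadjusted p under 0.05; voom on estimated fragments also called 0. The block called Cxcr6 alone, against 0.233% of genes. With PI3Kdi both fits called Cxcr3 and Cxcr6 lower in FOXO1-GFP KO CTL, 2 of 5 receptors against 1.45% of genes without and 1.18% with the block, of which 1.02% and 0.798% were lower. The median log2 fold change of the 5 receptors was -0.49 without and -0.85 with PI3Kdi, beside -0.01 and 0.01 over all genes. The PI3Kdi and genotype comparisons share libraries, each group being used in both kinds.

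For Cxcr6 the 6 FOXO1-GFP KO libraries, at 18.28 to 34.43 FPKM, all lay under the 6 WT libraries, at 48.90 to 88.35. A gap with FOXO1-GFP KO lower was found for 6.79% of genes without and 7.90% with PI3Kdi. Under PI3Kdi the log2 fold change was -1.65 ± 0.266 without the block (adjusted p = 0.00949, a 3.15-fold difference) and its adjusted p was 0.00301 with it. Without PI3Kdi it was -1.26 (2.40-fold, 95% interval -1.84 to -0.68), with an adjusted p of 0.0901 without and 0.0352 with the block. That call rested on the full set of libraries, since it was kept in 1 of 12 block fits that each left out a library (adjusted p from 0.0474 to 0.101). Replicate 2 had the lowest Cxcr6 of the WT libraries and the highest of the FOXO1-GFP KO libraries, with and without the inhibitor.

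Cxcr3 was called with PI3Kdi, at 20.7 ± 1.05 FPKM in WT+PI3Kdi against 9.89 ± 0.898 in FOXO1-GFP KO+PI3Kdi (SD, n = 3). The log2 fold change was -1.06 ± 0.101 without the block (adjusted p = 0.000831, a 2.09-fold difference), and the adjusted p was 0.00160 with it. The calls of Cxcr3 and Cxcr6 held under all 33 alternatives tried, with log2 fold changes of -0.99 to -1.12 for Cxcr3 and of -1.44 to -1.89 for Cxcr6. Without PI3Kdi the Cxcr3 libraries were also apart, 19.58 to 20.58 FPKM in WT and 13.06 to 15.72 in FOXO1-GFP KO. There the log2 fold change of -0.49 (95% interval -0.71 to -0.27) was under the fold change set for a call, and its adjusted p was 0.0872 without and 0.134 with the block.

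Cxcr4 was apart between genotypes only under PI3Kdi, where the lowest of the WT+PI3Kdi libraries was 6.94 FPKM and the highest of the FOXO1-GFP KO+PI3Kdi libraries 6.08. The log2 fold change was -0.85 (95% interval -1.49 to -0.21, adjusted p = 0.269 without and 0.245 with the block), and without PI3Kdi it was -0.63 (-1.27 to 0.01, adjusted p = 0.785). Under PI3Kdi, voom on estimated fragments with the block gave an adjusted p of 0.0995. No alternative tried called Cxcr4 there, the lowest adjusted p being 0.0591. The study, which fitted voom to counts, lists Cxcr4 as higher with PI3Kdi in WT and lower in FOXO1-GFP KO under PI3Kdi. FOXO1-GFP KO replicate 3, at 3.91 and 6.08 FPKM, stood above the other FOXO1-GFP KO libraries of its group. Ptgdr2 differed by -0.31 (-0.99 to 0.37) without and by -0.49 (-1.18 to 0.19) with PI3Kdi, and its libraries overlapped in both. For Ccr2 the differences were -0.09 (-0.49 to 0.30) and -0.13 (-0.53 to 0.26), the narrowest around 0 of the receptors not called. These intervals are those without the block.

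**Figure D3:**
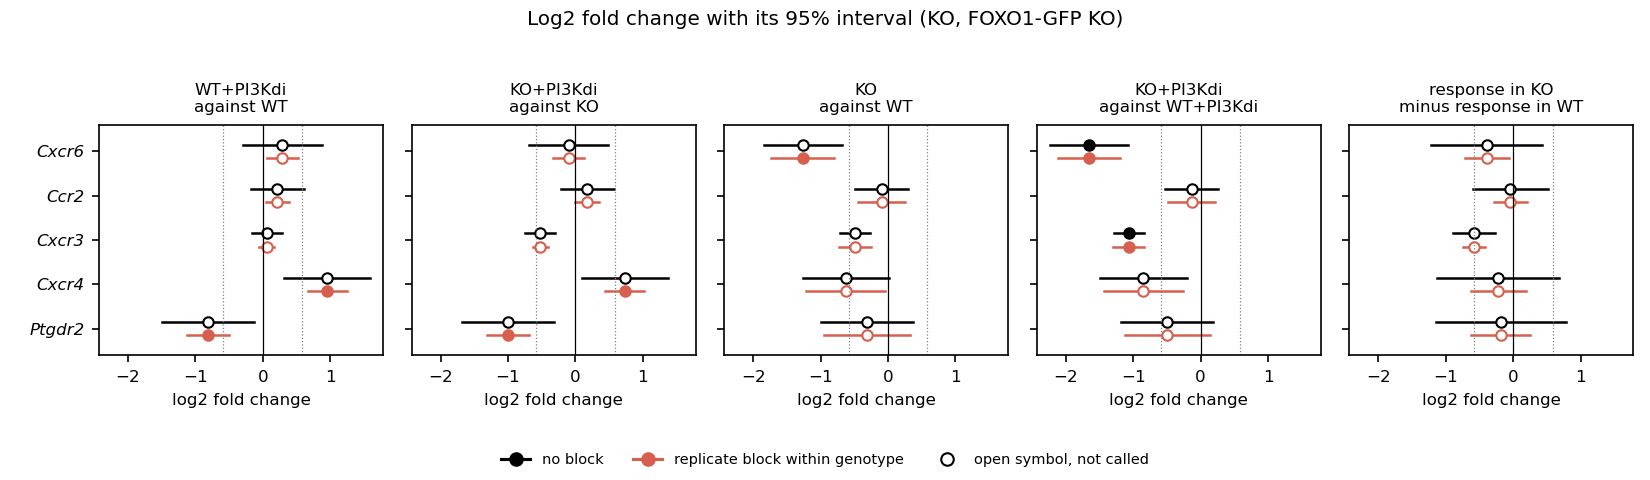
Log2 fold change and 95% interval of each receptor in the 4 comparisons and in the difference of the PI3Kdi responses, from the fit without (black) and with (red) the replicate block within genotype. Filled symbols are called, dotted lines mark a fold change of 1.5, and the block narrows the PI3Kdi intervals more than the genotype intervals.

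The last comparison asked whether the response to PI3Kdi depends on FOXO1. Neither fit called a receptor, 0 of 5 against 0% of all genes without and 0.0226% with the block; the unadjusted p was under 0.05 for 1 of 5 and 2 of 5, and voom on estimated fragments called 0 with and without the block. The response of Cxcr3 in FOXO1-GFP KO minus that in WT was -0.58 on the log2 scale, a 1.49-fold difference just under the fold change set for a call. Its adjusted p was 0.0207 with the block, 0.0340 with voom and the block, and 1.0 without the block. The Cxcr6 responses differed by -0.39 (95% interval -0.72 to -0.07, adjusted p = 0.355 with the block), higher with PI3Kdi in each WT pair and lower in each FOXO1-GFP KO pair. For Cxcr4 the difference was -0.22 (-0.63 to 0.19), for Ptgdr2 -0.18 (-0.63 to 0.26) and for Ccr2 -0.04 (-0.29 to 0.20), with the block. Those of Cxcr4 and Ptgdr2 reach past a fold change of 1.5 at their lower ends and not at their upper ends.

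The make-up of the receptor mRNA also differed between genotypes. The summed level of the 5 receptors was 105 to 153 FPKM in WT, 129 to 166 in WT+PI3Kdi, 78.3 to 84.0 in FOXO1-GFP KO and 77.1 to 84.1 in FOXO1-GFP KO+PI3Kdi. Cxcr6 gave 46.5 to 54.9% of it in WT libraries of both treatments and 23.7 to 41.0% in FOXO1-GFP KO libraries. Ccr2 gave 26.9 to 32.3% in the former and 38.7 to 60.1% in the latter. The ratio of Cxcr6 to Ccr2 was 1.54 to 2.04 in WT libraries and 0.394 to 1.06 in FOXO1-GFP KO libraries, so that the genotypes did not overlap. Fewer cells with a receptor and less of its mRNA in each cell cannot be told apart in such bulk samples.

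**Figure D4:**
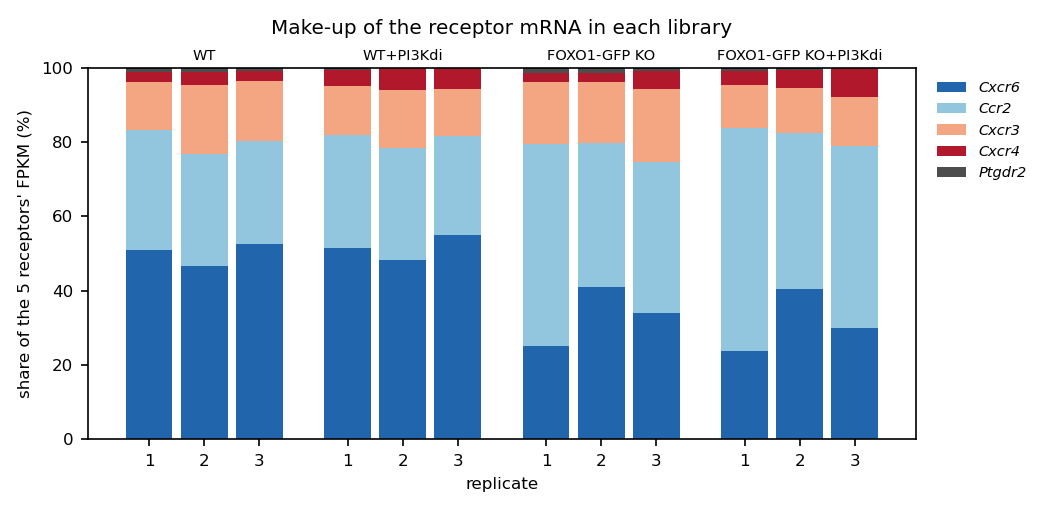
Share of each receptor in the summed FPKM of the 5, for every library, in percent. The Cxcr6 part is 46.5 to 54.9% in the 6 WT bars and 23.7 to 41.0% in the 6 FOXO1-GFP KO bars, with Ccr2 filling most of the rest.

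Cxcr6 (chr9:123806475-123811760, plus strand, GRCm38) and Ccr2 (chr9:124101950-124113557) lie within 1 Mb of each other and of Ccr1, a receptor for the inflammatory chemokine CCL3. Cxcr6 sits in an intron of Fyco1 on the opposite strand and shares no exonic base with it. Fyco1 was at 1.30 to 3.12 FPKM. Ccr1 was at 0.18 to 0.51 FPKM and was called in no comparison. The other members stand apart, Cxcr3 on chromosome X (101731535 to 101734269, minus strand), Cxcr4 on chromosome 1 (128588199 to 128592293, minus strand) and Ptgdr2 on chromosome 19 (10937160 to 10942511, plus strand).

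Of 20 further chemokine receptor genes 7 were in the table. Ccr7, which guides T cells to lymph nodes, and Cxcr5, the receptor for CXCL13 of B cell follicles, were called higher with PI3Kdi in WT under the block, by 0.65 (adjusted p = 0.0237) and 0.61 (adjusted p = 0.0375) on the log2 scale. Ccr7 was 17.34, 16.90 and 22.00 FPKM in WT and 34.91, 23.83 and 30.05 in WT+PI3Kdi. Cxcr5 was at most 0.24 FPKM in any library. Without the block 0 of 7 were called in WT by limma, and in the other 4 comparisons 0 of 7 were called by either limma fit, with at most 1 of 7 at an unadjusted p under 0.05 in each of these. Their median log2 fold change with PI3Kdi in WT was 0.13, against 0.21 for the 5 inflammatory receptors and -0.04 over all genes.

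Among receptors for lipid mediators and other chemoattractants 18 of 26 were in the table. With the block, 4 of 18 were called higher and 0 lower with PI3Kdi in WT, beside 1.53% and 1.05% of all genes. Without it limma called 0 of 18, with 7 of 18 at an unadjusted p under 0.05. S1pr1, through which T cells leave lymphoid tissue, rose most, from 1.95, 1.57 and 2.17 FPKM to 6.96, 4.40 and 5.79, by 1.53 on the log2 scale (adjusted p = 0.000133). Its FOXO1-GFP KO libraries lay lower without overlap, at 0.82 to 1.45 FPKM with vehicle and 1.63 to 3.46 with PI3Kdi. Such gaps were found for 6.79% and 7.90% of genes. Gpr18, Gpr183, an oxysterol receptor, and S1pr4 rose with PI3Kdi in WT by 0.60 to 0.64. Gpr183 and S1pr4 were also higher with PI3Kdi in all 3 FOXO1-GFP KO pairs, as were 23.1% of genes. In FOXO1-GFP KO, where 1.82% of all genes were called higher with the block and 0 of 18 of these receptors without it (9 of 18 at an unadjusted p under 0.05), Gpr18, S1pr1 and S1pr3 were called higher with the block, by 0.82, 0.95 and 1.10, S1pr3 from at most 0.24 FPKM. Between genotypes Tbxa2r, the thromboxane receptor, was called lower in FOXO1-GFP KO+PI3Kdi without the block (-1.0, adjusted p = 0.0464) but not with it. The median over the 18 was 0.23 with PI3Kdi in WT and -0.18 between genotypes under PI3Kdi, beside -0.04 and 0.01 over all genes. The most abundant receptor of this list, Ltb4r1 for leukotriene B4, was at 100 to 180 FPKM and was called in no comparison.

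**Figure D5:**
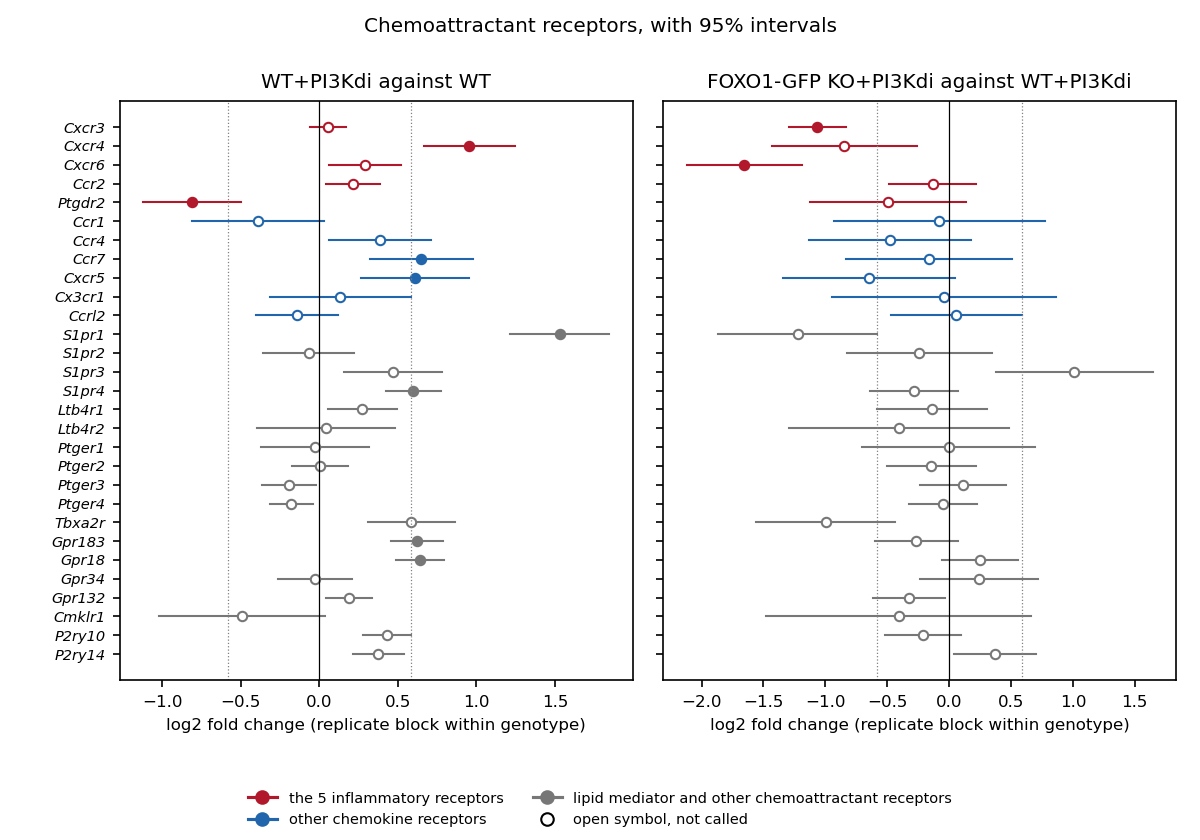
Log2 fold change and 95% interval, fitted with the replicate block within genotype, of the chemoattractant receptors, for PI3Kdi in WT (left) and for genotype under PI3Kdi (right). Filled symbols are called; 8 receptors are called on the left, where Ptgdr2 is the one called lower, and Cxcr3 and Cxcr6 on the right.

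Ligands of the 5 receptors were mostly absent, 3 of 10 being in the table. Ccl12, a CCR2 ligand, was called lower with PI3Kdi under the block in WT (-1.14, adjusted p = 0.0489) and FOXO1-GFP KO (-1.56, adjusted p = 0.0121), from 1.24 to 2.47 FPKM with vehicle in WT and 1.41 to 2.03 in FOXO1-GFP KO. Few estimated fragments lay behind Ccl12, 17 to 37 in WT and 3 to 9 in WT+PI3Kdi. In FOXO1-GFP KO they were 14 to 32, and 2 to 16 with PI3Kdi. Mif, which can bind CXCR4, was at 317 to 589 FPKM and Cxcl10 at 0.67 to 2.46, and neither was called. Of the enzymes that make prostaglandin D2, 2 of 5 were in the table, both under 0.5 FPKM in every library. The block called Ptgs1 lower in WT (-0.70, adjusted p = 0.0221) and Hpgds, the haematopoietic synthase, higher in FOXO1-GFP KO (0.59, adjusted p = 0.0198).

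Of the genes that act below the receptors 20 of 21 were in the table, and Pik3r5 alone was called. It encodes the p101 regulatory subunit of PI3Kγ, the isoform that G protein-coupled receptors activate. Over all genes the block called 2.57% for PI3Kdi in WT, 2.79% in FOXO1-GFP KO, and 0.233% and 1.18% between genotypes without and with PI3Kdi. Without the block the shares were 0.0979%, 0.0452%, 0.331% and 1.45% in that order. They also stand beside the lists that follow. Pik3r5 was 13.71, 12.26 and 10.43 FPKM in WT and 26.05, 23.21 and 26.51 in WT+PI3Kdi. The FOXO1-GFP KO libraries were at 8.03, 7.21 and 7.58 FPKM with vehicle and at 12.02, 11.39 and 10.64 with PI3Kdi. It rose with PI3Kdi in WT by 1.06 (adjusted p = 0.00671 without the block) and was lower in FOXO1-GFP KO under PI3Kdi by -1.15 (adjusted p = 0.000831). Of genes that desensitise receptors 16 of 19 were in the table. Arrb1, which encodes β-arrestin 1, was called lower in FOXO1-GFP KO without PI3Kdi in both fits (-2.11, adjusted p = 0.00654 without the block). With PI3Kdi it was called without the block alone (-1.51, adjusted p = 0.0113). Rgs16, an inhibitor of Gαi and Gαq signalling, was 28.60, 28.55 and 27.03 FPKM in WT and 15.89, 16.78 and 18.78 in WT+PI3Kdi, and was called lower with the block (-0.71, adjusted p = 0.00372). It was also lower in all 3 FOXO1-GFP KO pairs, as were 26.4% of genes. There it was 24.72, 23.66 and 13.89 FPKM with vehicle and 19.54, 16.56 and 8.55 with PI3Kdi.

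Adhesion molecules of T cell homing numbered 11 of 12 in the table. Itga4, a chain of the integrin VLA-4, was called higher with PI3Kdi in WT under the block, by 1.07 (adjusted p = 0.00755), and Itgae, the CD103 chain, in FOXO1-GFP KO by 0.71 (adjusted p = 0.0414). All 13 of 13 listed transcription factors linked to chemokine receptor expression were in the table. Klf2 rose with PI3Kdi both in WT (1.11, adjusted p = 0.00553) and FOXO1-GFP KO CTL (0.82, adjusted p = 0.0239), and Zfp683, which encodes HOBIT, fell in both (-1.31 and -0.87, adjusted p = 0.00143 and 0.0155), all with the block. Between genotypes Klf2 was lower in FOXO1-GFP KO, at 0.97 to 1.76 FPKM against 2.31 to 3.48 in WT. With PI3Kdi it was 1.59 to 2.67 FPKM in FOXO1-GFP KO against 3.64 to 7.87 in WT. Such gaps were found for 6.79% of genes without and 7.90% with PI3Kdi. Prdm1, which encodes BLIMP-1, fell in WT (-0.61, adjusted p = 0.0227). In the FOXO1-GFP KO pairs Prdm1 with PI3Kdi was 0.617 to 0.818 of its vehicle value. Stat4, which IL-12 activates, was lower in FOXO1-GFP KO under PI3Kdi without and with the block (-0.96, adjusted p = 0.00237 and 0.00335), whereas Tbx21, which encodes T-bet, was not called. With PI3Kdi in WT the median log2 fold change was 0.01 for the 20 signalling genes, -0.04 for the 16 desensitisation genes, 0.15 for the 11 adhesion genes and 0.06 for the 13 transcription factors, beside -0.04 over all genes.

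Because Ptgdr2 is known from type 2 cells, 10 type 2 genes were listed, of which 6 were in the table. Gata3 was at 3.77 to 5.03 FPKM and was called in no comparison. Il4 was higher with PI3Kdi in WT under the block, the direction opposite to Ptgdr2 (1.10, adjusted p = 0.0405), though at 0.04 to 1.06 FPKM. Il1rl1, which encodes the IL-33 receptor ST2, was lower in FOXO1-GFP KO under PI3Kdi without and with the block (-1.07, adjusted p = 0.0474 and 0.0263). Markers of mast cells, basophils and eosinophils, which also carry CRTH2, numbered 3 of 8 in the table. Their sum was 3.24 to 5.68 FPKM in WT, 2.83 to 5.23 in WT+PI3Kdi, 5.84 to 8.06 in FOXO1-GFP KO and 3.89 to 7.71 in FOXO1-GFP KO+PI3Kdi, and Fcer1a, Ms4a2 and Siglecf were not in the table. None of the 3 was called in any comparison.

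Markers of other cells moved with the genotype as well. Of 12 B cell markers 6 were in the table, Cd79a, Ms4a1 and Pax5 not among them. Their sum was 19.7 to 27.1 FPKM in the 6 WT libraries and 8.69 to 11.8 in the 6 FOXO1-GFP KO libraries. Ighm was at 7.61 to 12.98 FPKM in WT libraries and 1.64 to 3.71 in FOXO1-GFP KO libraries, and was called lower in both genotype comparisons (-1.60 and -2.38, adjusted p = 0.0153 and 0.000831 without the block). Igkc and Jchain were also called lower under PI3Kdi without the block, Igkc being listed at 0 in all 3 FOXO1-GFP KO+PI3Kdi libraries. With the block Igkc was also called higher with PI3Kdi in WT (1.35, adjusted p = 0.0294). Listed myeloid markers, 7 of 12 in the table, summed to 279 to 401 FPKM in WT libraries and 422 to 484 in FOXO1-GFP KO libraries, of which Ly6c2, which CD8 T cells also express, gave 242 to 428. Lyz2, Csf1r and Adgre1 were not in the table. CD4 T cell markers, 3 of 4 in the table, summed to 4.96 to 8.24 FPKM, and Cd4 was called higher with PI3Kdi in WT under the block, at 0.83 to 0.95 FPKM. Of NK cell markers 3 of 5 were in the table, Ncr1 and Klra8 not among them. Their sum was 10.4 to 12.2 FPKM in WT, 14.7 to 15.1 in WT+PI3Kdi, 13.1 to 15.3 in FOXO1-GFP KO and 18.0 to 21.3 in FOXO1-GFP KO+PI3Kdi. Klrk1 gave most of that sum, at 8.09 to 17.50 FPKM, while Klrb1c was at 1.94 to 4.81 and Klre1 at 0.23 to 0.85. Whether CTL or other cells held the Klrk1 mRNA cannot be told apart in these bulk samples. The part of these other cells in the levels of the receptors was not tested.

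The genes whose log2(FPKM + 0.1) over the 12 libraries was most like that of each receptor were sought among the 9549 genes whose mean reached 1 FPKM and whose symbols are not those of predicted or clone-based gene models. They were Slc37a2 and Ighm for Cxcr3 (Pearson r = 0.96 and 0.92), Ltb and Neurl3 for Cxcr4 (0.95 and 0.94), Klrb1f and Sesn1 for Cxcr6 (0.97 and 0.95), Mafg and Ly9 for Ptgdr2 (0.98 and 0.95), and Dcaf8 and Parp12 for Ccr2 (0.87 and 0.85). The 12 points share 4 groups and 6 replicate pairs, so these values are a description. Ltb, which encodes lymphotoxin β, and Neurl3 were called higher with PI3Kdi in both genotypes under the block, as Cxcr4 was. Klrb1f and Sesn1 were called lower in FOXO1-GFP KO under PI3Kdi in both fits, as Cxcr6 was. All these genes were picked for following a receptor over the same libraries, so the shared calls are no separate evidence.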

How the data were processed

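RNA sequencing of 12 libraries (4 groups of 3) was used. Per the labels and methods, the authors prepared stranded libraries from 300 ng of RNA, sequenced 75 bp paired ends in a shared lane, aligned them with STAR 2.7.1a to GRCm38.p6, counted reads per gene on Ensembl annotation 98, removed low genes with filterByExpr, scaled by TMM in edgeR and computed FPKM with summed exon lengths. The deposited table gives these FPKM for 13283 genes, with 2 decimals, and 0 columns of values were left unused. Genes removed by the filter were not analysed here. The strand setting of the counting is not given in the sources used here.

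Positions and exon lengths came from GENCODE M21 (GRCm38), which 13276 genes matched. Fragments were estimated from FPKM, exon length and a depth found from the spacing of values in genes of at most 400 bp; in held-out genes of up to 800 bp, 98.6 to 99.7% of values were whole within 0.2 fragments. Tests used limma 3.58.1 (R 4.3.3) on log2(FPKM + 0.1), 4 group means, empirical Bayes with a mean-variance trend, and Benjamini-Hochberg adjustment over all genes, checked on simulated data. Tables used Python 3.11.15 and pandas 2.3.3. The study's voom could not be the main test without counts.

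Replicate numbers come from the labels. Deviations of same-numbered libraries from their group means correlated at 0.596 to 0.838 in WT and 0.594 to 0.780 in FOXO1-GFP KO, but at -0.409 to 0.730 (vehicle) and -0.315 to 0.508 (PI3Kdi) across genotypes, so same-numbered libraries were treated as pairs inside each genotype. This replicate block entered limma as a correlation (consensus 0.757). The fits with the block that left out a library kept this value from all 12 libraries, so the library left out still bore on it.

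The members and lists were chosen with earlier results of these data known. Named genes were the members, Foxo1, up to 6 called genes of each list (otherwise its most abundant gene), the 2 genes most like each member that are not predicted gene models, and chemokine receptors within 1 Mb of a member; Ccdc86, Fyco1, Mif, Cxcl10, Ltb4r1, Gata3 and Tbx21 were chosen after their values were seen. Alternatives were pseudocounts of 0.01 and 1 FPKM, a minimum mean of 1 FPKM in a group, median centring, the groups compared alone, both blocks, voom, and each library left out. Some listed genes counted in the lists are not reported here by name. P-values rest on the spread between these libraries within groups, moderated over all genes. With the block they rest as well on a correlation shared by all genes.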

Additional observations from a re-analysis of the deposited data

Results flagged for a closer look

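The PI3Kdi responses of Cxcr3 and Cxcr6 stood apart between the genotypes, the first by a test and the second by the direction of its pairs. For Cxcr3 the response in FOXO1-GFP KO minus that in WT was -0.577 on the log2 scale (adjusted p = 0.0207 by limma with the replicate block within genotype, 1.0 without it), which is just under the fold change set for a call. All 3 FOXO1-GFP KO pairs were lower with the inhibitor, and of the WT pairs 2 were higher and 1 was lower. Over the fits with the block that each left out a library, the adjusted p was 0.0325 to 0.0965 and the difference -0.53 to -0.62. For Cxcr6 the difference was -0.393, and the 3 WT pairs were higher and the 3 FOXO1-GFP KO pairs lower with PI3Kdi, as were 16.7% of all genes in the WT pairs and 26.4% in the FOXO1-GFP KO pairs, each taken alone. The test of that difference gave an adjusted p of 0.355 with the block and 1.0 without it, so it did not pass the test.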

How the results depend on the processing

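Of 7827 values of 48 named genes under an alternative, 7236 kept their direction and side of the threshold, 155 lost a call, 436 gained one and 0 reversed. The calls of Cxcr3 and Cxcr6 between genotypes under PI3Kdi held in every alternative tried.

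With the replicate block within genotype, the receptors called numbered 2 for PI3Kdi in WT, 2 in FOXO1-GFP KO and 1 between genotypes without PI3Kdi, as with voom and that block. The block shared by all groups also called 1 there, and it changed no other call of a receptor. With the block and each library left out in turn (chosen after seeing the data), the receptors called were 2 in WT, 1 to 2 in FOXO1-GFP KO, 0 to 1 between genotypes without PI3Kdi, and 0 to 1 for the difference of the responses, where Cxcr3 was called without WT replicate 3, WT+PI3Kdi replicate 3 or FOXO1-GFP KO replicate 2.

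Over all genes, PI3Kdi in WT changed 13 mRNA, or 342 with the block within genotype, 356 with voom and that block, 99 with the block shared by all groups, 22 with voom and 0 with only the groups compared (1 to 10 with a library left out, 236 to 355 with that and the block). In FOXO1-GFP KO the count was 6, or, in the same order, 370, 446, 42, 5 and, with only the groups compared, 0 (0 to 4, and 170 to 430). Between genotypes without PI3Kdi it was 44, or 178 with the block shared by all groups, 31 with that within genotype and 0 with only the groups compared (8 to 41, and 14 to 42). With PI3Kdi it was 193, or 440, 157 and 94 in the same order (111 to 196, and 85 to 164). The difference of responses called 0, or 3 with the block and 6 with voom and the block (1 to 10 with the block and a library left out), and with only the groups compared it is not defined apart from all 4 groups. The cause was not tested, except that leaving out libraries or groups leaves fewer samples. The low counts of Ptgdr2 and Cxcr4 limit their precision.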
